A study of Geissois pruinosa and Geissois racemosa with 6 samples.

Results

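A set of 20 contigs is described here, chosen because they lay at nearly the same level in leaves of 2 wild plants of Geissois pruinosa while differing widely among leaves of 3 wild plants of Geissois racemosa. A contig is a transcript sequence put together from overlapping reads, and all contigs of this study were assembled from G. pruinosa. Levels are in CPM, the count of a contig per 1000000 counts of its library. A member had at least 10 CPM in pruinosa plants 1 and 2, which differed at most 1.5-fold, and at least 10 counts in every G. racemosa library. Its highest G. racemosa level was at least 6 times the lowest, lay above both pruinosa plants and had its counterpart, the lowest, below both. The mean over the 6 libraries had to be under 1000 CPM. Of 54969 contigs, 20 met all of these conditions. The values of pruinosa plants 1 and 2 and of the 3 G. racemosa plants thus chose the members, so these levels are a description and were not tested. The library of pruinosa plant 3 took part only in the limit on the mean.

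Both species are woody plants of the family Cunoniaceae that are endemic to New Caledonia. G. pruinosa is labelled as a nickel hyperaccumulator, a plant that takes up nickel from the soil, moves it through the xylem and stores it in its leaves, mainly bound to organic acids and largely in vacuoles. G. racemosa is labelled as a non-accumulator of nickel. Metal transporters and the enzymes that make metal-binding molecules are known to be highly expressed in hyperaccumulators compared with related species. Leaf transcripts of wild plants are also known to vary with light, water, pathogens, leaf age and time of day. The contigs carry numbers without gene names, so no function can be given to any member and no leaf marker gene could be checked.

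Each library was made from the polyadenylated RNA of the leaves of 1 plant, with 3 plants per species and no controlled growth or treatment. Collection of the G. pruinosa leaves took place on 11 March, at sites 1.95 km apart for plants 1 and 2, with plant 3 at 10.6 and 9.05 km from them. The G. racemosa leaves came from 12 June for plants 2 and 3 and from the day before, 11 June, for plant 1. Racemosa plants 2 and 3 stood 8.23 km apart, and plant 1 stood 74.4 and 81.4 km from them. The labels name serpentine maquis and rainforest on limestone as habitats. Species, month and place changed together, and each G. racemosa plant was also a site of its own, so a difference between these plants cannot be told apart from a difference between sites. Library totals ran from 23661301 counts in racemosa plant 1 to 64908952 in racemosa plant 2. The library of pruinosa plant 3 stood apart. Where racemosa plant 1 had 500 counts or more (8311 contigs), the CPM of pruinosa plant 3 never fell below 0.294 of that plant's, while the lowest ratio was 0 for 2 other libraries and 0.00012 and 0.00018 for racemosa plant 2 and pruinosa plant 2. Results that rest on pruinosa plant 3 are therefore given beside the level of racemosa plant 1.

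Wide spread among the G. racemosa plants was rare for contigs that were steady in G. pruinosa. Pruinosa plants 1 and 2 reached 10 CPM for 10436 contigs and lay within 1.5-fold for 7191 of these. With the minimum count in G. racemosa and the limit on the mean, 7125 steady contigs remained, of which 52 (0.73%) had a G. racemosa ratio of 6 or more. In 30 of the 52 no G. racemosa plant lay above both pruinosa plants, in 2 none lay below both, and the other 20 are the members. The median ratio of the highest to the lowest G. racemosa plant was 1.46 over the 7125 steady contigs. It was 1.52 over 2825 contigs of the same minimum level for which pruinosa plants 1 and 2 lay between 1.5 and 3-fold apart, and 1.95 over 305 contigs for which they lay at least 3-fold apart. Ratios of 6 or more made up 1.88% and 8.52% of these sets. The contigs that differed more between the pruinosa plants were thus also more often far apart among the G. racemosa plants. The members are 20 of the 52 exceptions at the steady end.

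**Figure D1:**
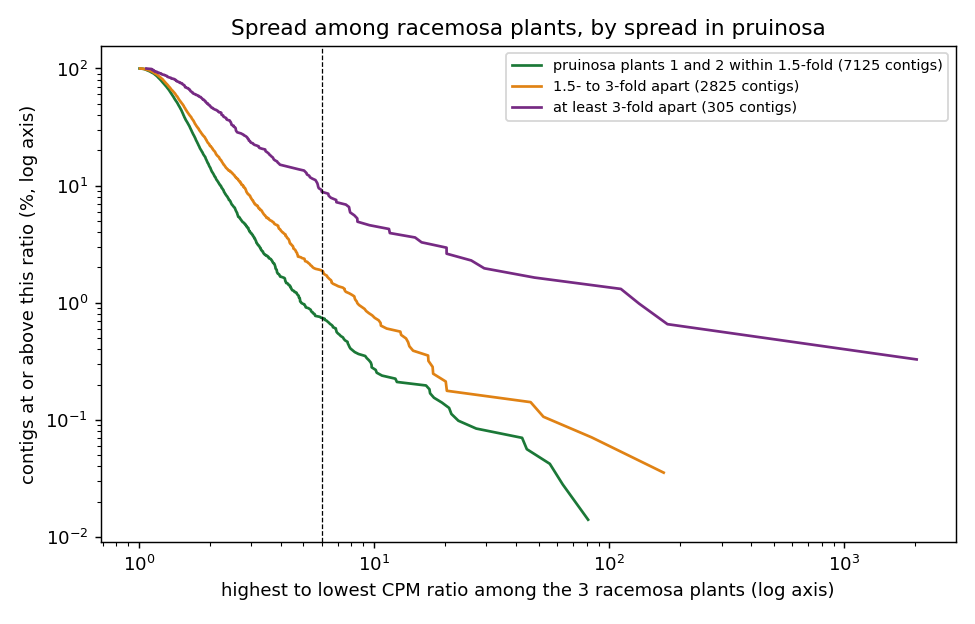
Percent of contigs (vertical log axis) at or above a given ratio of the highest to the lowest CPM among the 3 G. racemosa plants (horizontal log axis), for contigs grouped by the fold between pruinosa plants 1 and 2, with a dashed line at 6. At the dashed line the curves stand at 0.73%, 1.88% and 8.52% from the steadiest to the least steady group.

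The members were moderately abundant, with means over the 6 libraries from 9.30 to 147.8 CPM and a median of 26.7 CPM. The fold between pruinosa plants 1 and 2 ran from 1.01 to 1.41 with a median of 1.22. In G. racemosa the ratio of the highest to the lowest plant ran from 6.15 to 63.4 with a median of 10.2, and it was at least 10 in 11 members. The lowest G. racemosa library held between 25 and 2973 counts of a member, and the highest between 350 and 9745. The lower end of the exact 95% interval of the ratio, which covers counting error only, was at least 6 in 16 of the 20 members. For the other 4 members, contig_9135, contig_20989, contig_9504 and contig_15163, it lay between 5.18 and 5.88. The same counts chose the members at a ratio of 6 or more, and the intervals take no account of that choice. They describe the counting error and are no test of the spread.

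**Figure D2:**
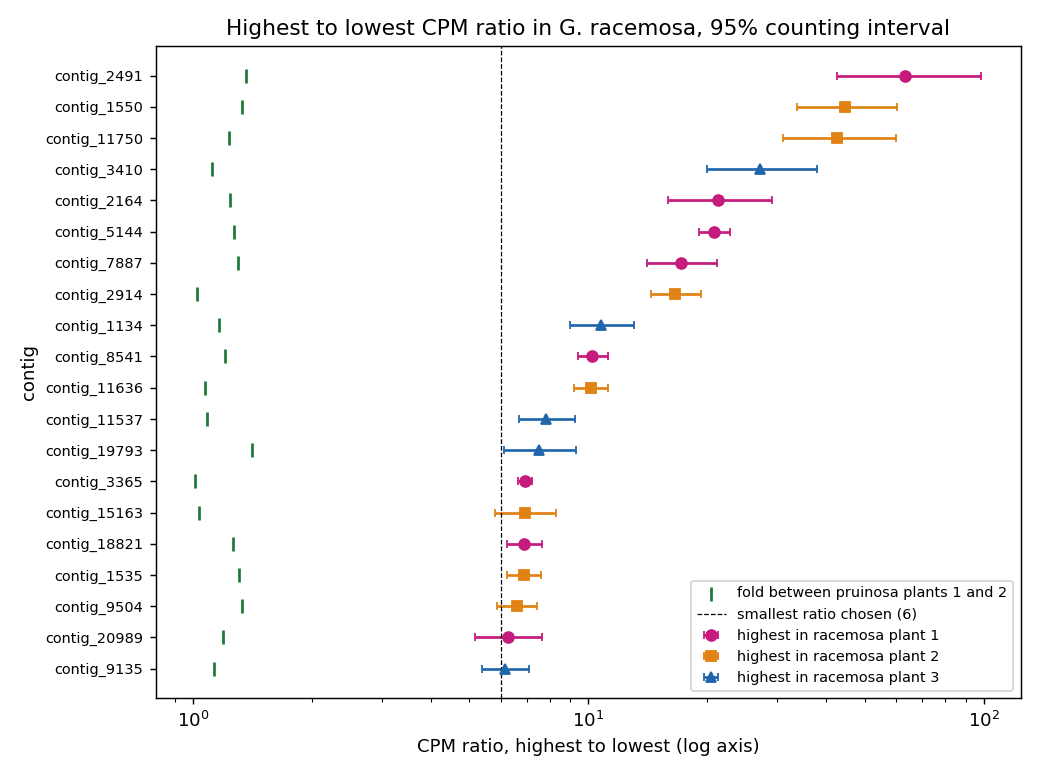
Ratio of the highest to the lowest CPM among the 3 G. racemosa plants for each member (horizontal log axis), with exact 95% counting intervals as bars and symbols by the plant that is highest, and green ticks for the fold between pruinosa plants 1 and 2. The ticks lie between 1.01 and 1.41 and the ratios between 6.15 and 63.4, with contig_2491 at the top.

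Near the smallest ratio, contig_9135 was the last member inside at 6.15, and contig_2769 lay just outside at 5.86. At the limit between pruinosa plants, contig_19793 was inside at 1.41-fold and contig_10692 outside at 1.52-fold. The choice of library totals also decided who was a member. With totals scaled by TMM, which sets libraries to a common composition, 14 of the 20 remained and 6 other contigs came in. Those that dropped out were contig_20989, contig_1550, contig_1535, contig_19793, contig_9135 and contig_3410.

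The members did not share 1 pattern among the G. racemosa plants. Racemosa plant 1 was the highest in 8 members, plant 2 in 7 and plant 3 in 5. Racemosa plant 3 was the lowest in 10, and plants 1 and 2 were each the lowest in 5. On a log scale, the plant farthest from the middle one was plant 1 in 7 members, plant 2 in 6 and plant 3 in 7. Among the other 7105 steady contigs, plant 1 was the highest in 47.7%, plant 2 in 19.2% and plant 3 in 33.1%, while plant 2 was the lowest in 52.6%, plant 3 in 27.2% and plant 1 in 20.2%. All 6 possible orders of the plants occurred among the members, each in 2 to 5 of them. In 6 members the 2 plants nearest to each other lay within 1.5-fold, so that 1 plant stood apart from a close pair. In the remaining 14 no 2 plants lay that close. With a limit of 2-fold, 9 members had such a pair.

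**Figure D3:**
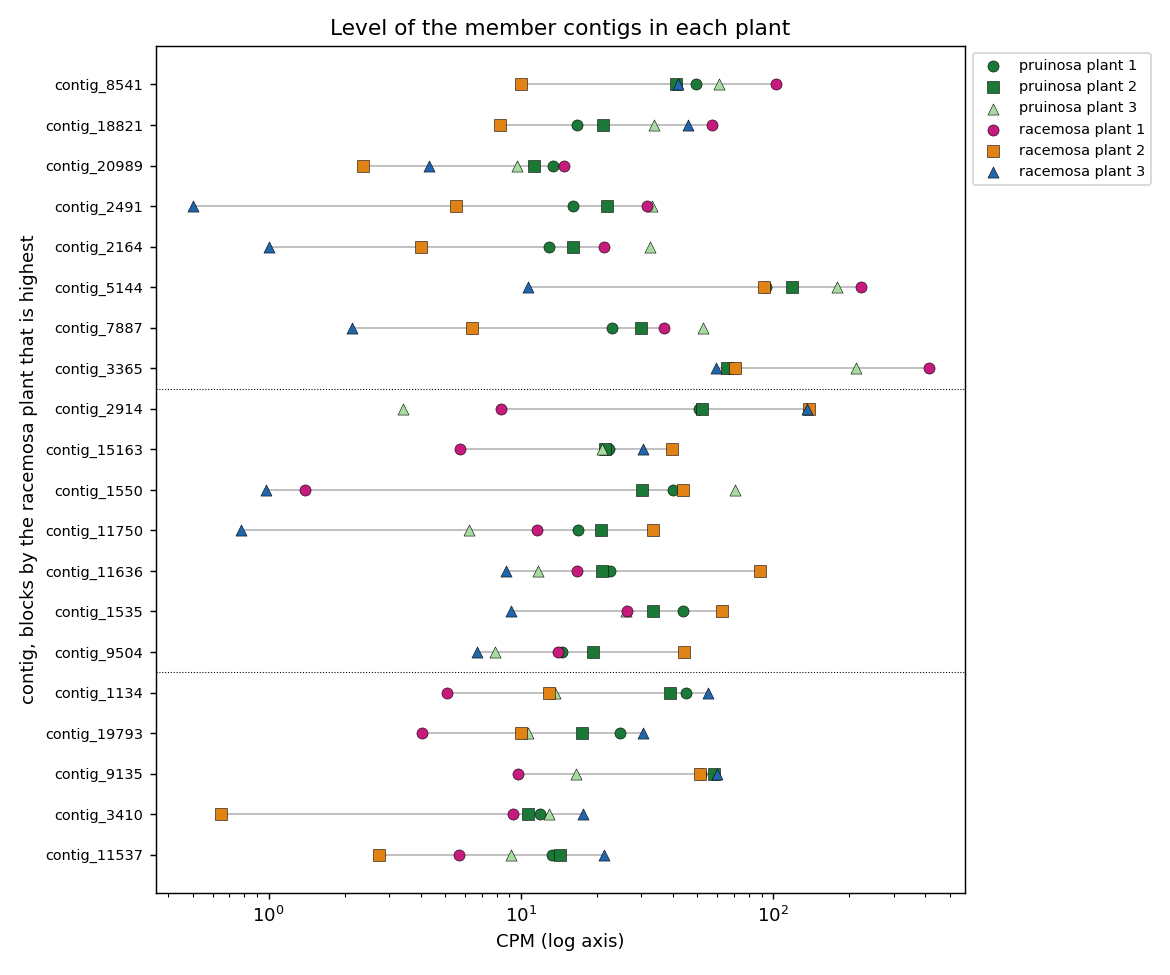
CPM of the 20 members (horizontal log axis) in each of the 6 plants, in blocks by the G. racemosa plant that is highest (plant 1 at the top, plant 3 at the bottom), with grey lines from the lowest to the highest G. racemosa plant. Dark green symbols for pruinosa plants 1 and 2 lie close together in every row, and the light green triangle of pruinosa plant 3 lies to their right in 9 rows and to their left in 11.

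In 5 members racemosa plant 1 was the highest and plant 3 the lowest. The widest ratio of all members was that of contig_2491, which stood at 16.1, 21.9 and 33.1 CPM in pruinosa plants 1, 2 and 3 and at 31.7, 5.52 and 0.500 CPM in racemosa plants 1, 2 and 3. Its ratio of 63.4 rested on 750 counts against 25 and had a 95% counting interval from 42.6 to 98.5. No 2 of the G. racemosa plants were close to each other, with plant 2 at 5.75 times below plant 1 and 11.0 times above plant 3. The levels of contig_2164 were 13.0, 16.1 and 32.4 CPM in the pruinosa plants and 21.3, 4.01 and 1.001 CPM in the racemosa plants, in plant order. For contig_7887 they were 22.9, 29.8 and 52.7 CPM and 36.8, 6.41 and 2.14 CPM. These 3 contigs had the same order of all G. racemosa plants, and in each of them pruinosa plant 3 lay above all of the other plants of both species. The profiles of contig_2164 and contig_7887 were nearly proportional, as the log2 ratio of their levels had an SD of 0.15 over the 6 libraries.

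The other 2 members of this order were the most abundant of all. In contig_5144, the pruinosa plants had 93.7, 118.9 and 178.1 CPM and the racemosa plants 221.7, 91.9 and 10.6 CPM. Here racemosa plant 2 lay close to pruinosa plants 1 and 2, and racemosa plant 3, with 532 counts, stood 8.63 times below it. The most abundant member, contig_3365, had 66.4, 65.5 and 213.4 CPM in the pruinosa plants and 411.9, 70.2 and 59.5 CPM in the racemosa plants. In this contig only 1 G. racemosa plant departed, since plants 2 and 3 differed 1.18-fold from each other and lay close to pruinosa plants 1 and 2, while plant 1 was 5.87 times above plant 2. The lowest racemosa plant was 1.11 times below the mean of pruinosa plants 1 and 2 (the geometric mean, here and below).

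In 3 members plant 1 was again the highest but plant 2 the lowest. For contig_8541 the levels were 49.4, 41.1 and 60.8 CPM in G. pruinosa and 102.7, 10.03 and 42.05 CPM in G. racemosa, again in plant order. Racemosa plant 3 lay close to pruinosa plant 2 here, and the other G. racemosa plants lay 2.28 times above and 4.49 times below the pruinosa mean. The values of contig_18821 were 16.7, 21.05 and 33.6 CPM against 56.9, 8.27 and 46.1 CPM, so that racemosa plants 1 and 3 were both above all pruinosa plants and plant 2 was below all. The least abundant member, contig_20989, had 13.4, 11.3 and 9.65 CPM against 14.8, 2.36 and 4.32 CPM. Its highest G. racemosa plant was only 1.20 times above the pruinosa mean, so its spread lay almost wholly below G. pruinosa.

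Racemosa plant 2 was the highest and plant 3 the lowest in 5 members. The contig with the second widest ratio, contig_1550, had 40.05, 30.1 and 70.5 CPM in the pruinosa plants and 1.39, 43.7 and 0.981 CPM in the racemosa plants. Its G. racemosa plants fell into a level like that of G. pruinosa in plant 2 and levels near 1 CPM in plants 1 and 3, where 33 and 49 counts were found. The ratio of 44.6 had a counting interval from 33.6 to 60.4. In contig_11750 the single low plant was racemosa plant 3, with levels of 16.9, 20.8 and 6.25 CPM in G. pruinosa and of 11.5, 33.2 and 0.780 CPM in G. racemosa. This low level rested on 39 counts and lay 14.8 times below that of plant 1.

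The other 3 members of this order had smaller ratios. Levels of contig_11636 were 22.5, 21.0 and 11.6 CPM in the pruinosa plants and 16.6, 88.7 and 8.75 CPM in the racemosa plants. Racemosa plant 2 lay 4.08 times above the pruinosa mean and 5.34 times above the next G. racemosa plant. The profile of contig_9504 was similar, at 14.5, 19.4 and 7.92 CPM against 14.0, 44.3 and 6.72 CPM. In contig_1535 the values were 43.7, 33.4 and 26.0 CPM against 26.3, 62.5 and 9.11 CPM. In all 3, racemosa plant 1 lay between its neighbours and below the pruinosa mean, at 0.764, 0.835 and 0.688 of it.

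In 2 members racemosa plant 2 was the highest and plant 1 the lowest. A single G. racemosa plant stood against a close pair in contig_2914, with 50.9 and 52.2 CPM in pruinosa plants 1 and 2, 138.3 and 135.7 CPM in racemosa plants 2 and 3, and 8.33 CPM in racemosa plant 1. Racemosa plants 2 and 3 differed 1.02-fold, and plant 1 stood 16.3 times below them. Pruinosa plant 3 was lower still, at 3.41 CPM or 15.1 times below the mean of the other pruinosa plants. By the values of that library, whose lower limit is described above, this contig was the least steady of the members. In contig_15163, by contrast, the 3 pruinosa plants were alike at 22.3, 21.5 and 21.0 CPM, while the racemosa plants had 5.75, 39.7 and 30.4 CPM. Racemosa plant 1, with 136 counts, lay 3.81 times below the pruinosa mean there.

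Racemosa plant 3 was the highest and plant 1 the lowest in 3 members. In contig_1134 the pruinosa plants had 45.1, 38.9 and 13.6 CPM and the racemosa plants 5.11, 13.0 and 55.2 CPM. The levels of contig_19793 were 24.6, 17.4 and 10.6 CPM against 4.06, 10.03 and 30.5 CPM. In both contigs racemosa plant 2 lay about midway, on a log scale, between plants 1 and 3, and pruinosa plant 3 lay near racemosa plant 2. For contig_9135 the levels were 51.5, 58.2 and 16.5 CPM against 9.72, 51.4 and 59.8 CPM. Here racemosa plants 2 and 3 lay close to pruinosa plants 1 and 2, and racemosa plant 1 and pruinosa plant 3 were the low plants.

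The last 2 members were highest in racemosa plant 3 and lowest in plant 2. In contig_3410 a single G. racemosa plant was low, with 11.9, 10.7 and 12.9 CPM in the pruinosa plants and 9.26, 0.647 and 17.6 CPM in the racemosa plants. Racemosa plant 2 had the deepest library and yet only 42 counts of this contig, 14.3 times below plant 1 in CPM. The values of contig_11537 were 13.2, 14.3 and 9.16 CPM against 5.71, 2.73 and 21.4 CPM, with racemosa plants 1 and 2 both below all pruinosa plants.

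In 5 members, contig_2491, contig_1550, contig_11750, contig_3410 and contig_2164, a G. racemosa plant lay at about 1 CPM or less while another lay at 17 CPM or more. The reads of G. racemosa were counted on G. pruinosa sequences. A low level of the transcript and a sequence that differs in that plant therefore cannot be told apart for these contigs. The same limit holds for the other members.

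The third pruinosa plant gave the only value of the steadiness in G. pruinosa that the rule had not used. With plant 3 included, the highest and lowest pruinosa plants lay within 1.5-fold in 4 of the 20 members, namely contig_8541, contig_20989, contig_15163 and contig_3410. Among the other 7105 steady contigs this share was 61.2%. Plant 3 lay outside the range of plants 1 and 2 in all 20 members, above it in 9 and below it in 11, and in 44.8% and 36.9% of the other steady contigs, of which 18.3% had it within that range. Its level ran from 0.0661 to 3.24 times the mean of plants 1 and 2, with a median of 0.871, against a median of 1.04 in the other steady contigs. Steadiness in G. pruinosa is thus a statement on plants 1 and 2. Because this library never fell below 0.294 of racemosa plant 1 where the latter was well counted, how far its values are the levels of pruinosa plant 3 itself was not tested.

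Pruinosa plant 3 and racemosa plant 1 lay on the same side of the mean of pruinosa plants 1 and 2 in 79.5% of the other steady contigs and in 17 of the 20 members, a share close to that of the others. Both levels are set against the same mean, and racemosa plant 1 was among the plants that chose the members. The same was true of 7 members for racemosa plant 2 (71.3% of the others) and 7 members for racemosa plant 3 (72.5%). The rule places G. racemosa plants on opposite sides of the pruinosa mean, so the 3 counts depend on each other. Where racemosa plant 1 was the highest, pruinosa plant 3 lay above plants 1 and 2 in 7 of 8 members, and where it was the lowest, pruinosa plant 3 lay below them in 5 of 5. The matching shares of the other steady contigs were not computed, so nothing is read from these counts. Pruinosa plant 3 and racemosa plant 1 lay on opposite sides in contig_20989, contig_1550 and contig_3410. In contig_1550 pruinosa plant 3 had 50.5 times the CPM of racemosa plant 1.

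Shares over the steady contigs that are not members were computed by how far racemosa plant 1 lay from the pruinosa mean. Where racemosa plant 1 lay at least 2-fold above the pruinosa mean, pruinosa plant 3 was on the same side in 4 of 4 members and in 98.7% of 687 other steady contigs. Where it lay at least 2-fold below, this was so in 6 of 7 members and in 90.7% of 679 others. The 3 pruinosa plants lay within 1.5-fold in 1 of these 4 and 1 of these 7 members, and in 15.1% and 19.4% of the others. Where racemosa plant 1 lay within 2-fold of the pruinosa mean, the 3 pruinosa plants lay within 1.5-fold in 2 of 9 members and in 71.6% of 5739 others. Among the other steady contigs, the shared side was common with racemosa plants 2 and 3 as well, but its share was largest for racemosa plant 1. In the same 687 contigs, pruinosa plant 3 was on the side of racemosa plants 2 and 3 in 95.2% and 95.8%. In the 679 these shares were 88.4% and 87.2%. Where racemosa plant 2 itself lay at least 2-fold above or below, pruinosa plant 3 was on its side in 88.6% and 83.6%. For racemosa plant 3 these shares were 91.9% and 84.6%. Over the members the lowest ratio of pruinosa plant 3 to racemosa plant 1 was 0.409, in contig_2914, and over the other steady contigs it was 0.310. The part of the lower limit of this library in these values was not tested.

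**Figure D4:**
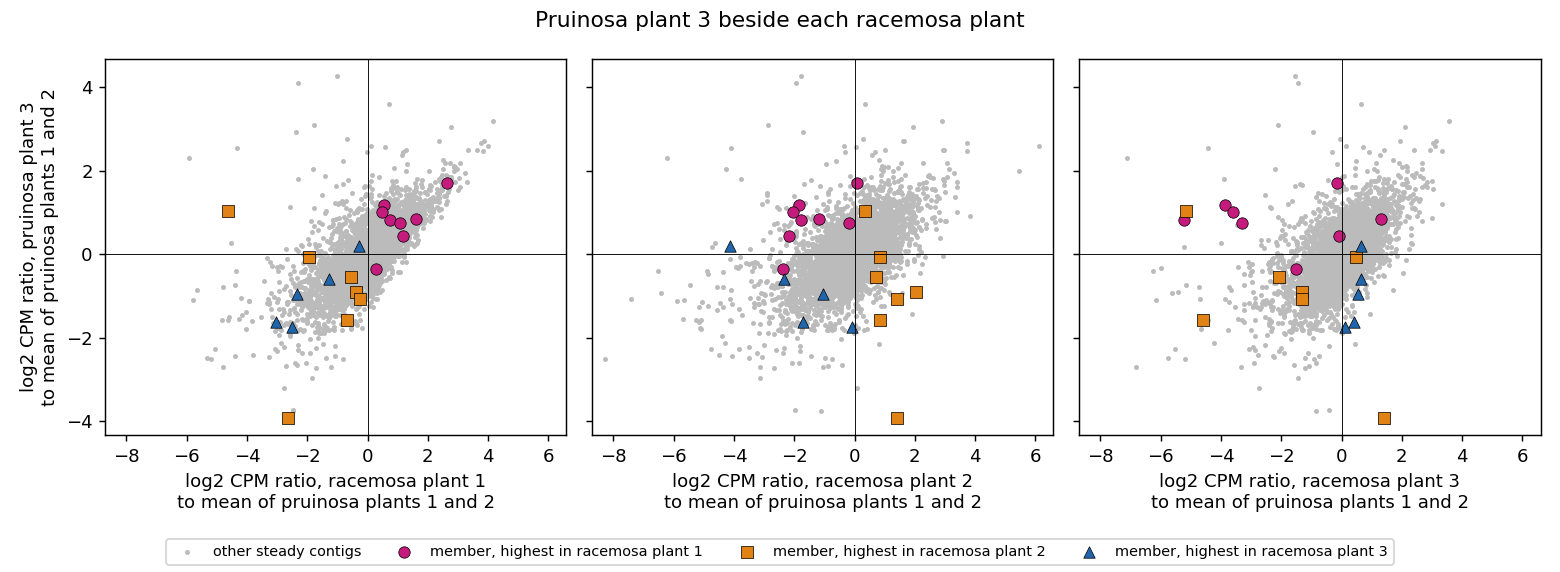
Log2 ratio of pruinosa plant 3 to the geometric mean of pruinosa plants 1 and 2 (vertical axis) against the same log2 ratio for racemosa plant 1, 2 or 3 (horizontal axis, 3 panels), with members as coloured symbols by the plant that is highest and the other steady contigs in grey. In the left panel 17 of the 20 members lie in the lower left or upper right part, and in the other panels 7 each.

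The comparison of the species, over all contigs, called none of the members. The edgeR quasi-likelihood test with Benjamini-Hochberg adjustment called 492 of 43447 contigs tested (1.13%) at an adjusted p under 0.05, and 0 of the 20 members, all of which were tested. At an unadjusted p under 0.05 it found 0 members, against 18.2% of all contigs. DESeq2 also called 0 members, against 9.57% of all contigs, and so did limma-voom, against 0.92%. At an unadjusted p under 0.05 limma-voom placed 3 members, against 18.7% of all contigs. The rule puts G. racemosa plants on opposite sides of pruinosa plants 1 and 2, so nothing is read from these counts. Log2 fold changes of the members, G. pruinosa minus G. racemosa, ran from -1.47 to 1.47 with standard errors from 0.61 to 1.33, and 11 were positive and 9 negative. Intervals of this width leave room for differences of several fold in either direction. The member with the smallest p was contig_11636, at -1.17 (standard error 0.85, edgeR adjusted p = 0.504, n = 3 plants per species). The values depended on single plants. This largely follows from the rule, which sets the highest and lowest G. racemosa plants of a member at least 6-fold apart. The fits below are therefore a description, and nothing is read from their adjusted p. In the edgeR fits that left out 1 library they ran from -2.05 (contig_2914, without racemosa plant 1) to 5.34 (contig_1550, without racemosa plant 2, edgeR adjusted p = 0.0918). Without racemosa plant 1 the largest were those of contig_7887 at 2.91 (edgeR adjusted p = 0.164), contig_2164 at 2.89 (edgeR adjusted p = 0.201) and contig_2491 at 2.80 (edgeR adjusted p = 0.277). With limma-voom contig_1550 stood at 3.25 (adjusted p = 0.220). For contig_11636 racemosa plant 2 decided the direction, since without that plant the log2 fold change was 0.55 (edgeR adjusted p = 0.655).

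The choice of the steady pair and of the species changed how many contigs showed such a pattern. With pruinosa plants 1 and 3 as the steady pair the same conditions gave 15 of 5604 steady contigs, and 3 of the 15 are members. With plants 2 and 3 they gave 37 of 7695, and 5 of the 37 are members. With the species exchanged, a pair of G. racemosa plants had to be steady and the 3 pruinosa plants spread on either side. This gave 117 of 7593 steady contigs for racemosa plants 1 and 2. It gave 150 of 8622 for plants 1 and 3 and 151 of 8292 for plants 2 and 3. These counts use pruinosa plant 3 as 1 of the 3 spread plants, and the difference between the species was not tested.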

How the data were processed

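The authors deposited raw read counts per contig, 1 file for each of 6 libraries, per the file headers. According to the series' design text, G. pruinosa contigs were the reference for both species. The labels' protocols give a stranded mRNA kit; which mapper and counter were used, whether strand counted and what was done with reads shared by similar contigs is not given in the sources used here. A contig therefore does not stand for a gene, and reads of close copies may be split.

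Titles gave each library's species and number, and replicates are separate plants. CPM used plain library totals (Python 3.11.15, pandas 2.3.3). Ratio intervals are exact binomial (Clopper-Pearson) intervals at 95% (scipy 1.17.1), covering counting error only; reads carry no molecular identifiers. Depth limits racemosa plant 1 most, where the 3 counts that a count of 0 allows are 0.127 CPM.

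The species were compared on the counts over all contigs with edgeR 4.0.16 in R 4.3.3 (TMM, filterByExpr, glmQLFit, glmQLFTest, species as the only term); DESeq2 1.42.0 and limma 3.58.1 (voom) were alternatives. Standard errors are the size of the log2 fold change over the root of the F statistic.

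The members and lists were chosen with earlier results of these data known. The contigs singled out for a closer description were to be, in each order of the G. racemosa plants, the 2 with the widest ratio and the 2 most abundant; with the member of smallest p and those at the limits this came to 17, and contig_7887, contig_9504 and contig_20989 were added so that all 20 are described. Closest profiles were found after the values were seen.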

Additional observations from a re-analysis of the deposited data

How the results depend on the processing

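The number of members, 20, was 20 with TMM or RLE totals (14 of the 20 kept in each), 22 on libraries thinned to the smallest total (all 20 kept), 15 and 25 with a pruinosa fold of 1.3 and 2, and 19 with a minimum of 30 counts. It was 37 with a pruinosa minimum of 5 CPM, 11 with 20 CPM, 43 with a G. racemosa ratio of 4, 11 with a ratio of 10, and 4 when pruinosa plant 3 also had to lie within 1.5-fold. Looser limits admit more contigs and stricter ones fewer by construction. Leaving out 1 library gave from 7 to 37 members: 7, 9 and 7 without racemosa plants 1, 2 and 3 (7, 9 and 6 of the 20), and 37 and 15 without pruinosa plants 1 and 2, when plant 3 took their place (5 and 3 of the 20). The share of members with all pruinosa plants within 1.5-fold, 20%, was between 10% and 18.2% in 4 alternatives. Racemosa plant 1 was highest in 40% of members and in between 36.4% and 55% under these alternatives, plant 2 in 35% and between 30% and 45.5%, and plant 3 in 25% and between 15% and 27.3%; the TMM totals gave the 55% and 15%. No member was called between the species in any of 14 alternative fits, including DESeq2, limma-voom and each library left out. The rule makes such a call unlikely whatever the fit, so nothing is read from the counts of members in these fits. The share of all contigs called ran from 0% without racemosa plant 2 to 9.57% with DESeq2, and was 4.55% without pruinosa plant 3. Without racemosa plants 1, 2 and 3 only 7, 0 and 2 contigs were called in all, so those fits could hardly call a member. Under a replicate block 0 members were called, and 16 contigs in all against 492. Libraries of the same number did not deviate together (correlations of -0.25, 0.05 and -0.23), and no label pairs them. Without racemosa plant 2 the log2 fold change of contig_11636 turned from -1.17 to 0.55; over the fits that left out 1 library it ran from -1.66 to 0.55. Without racemosa plants 1, 2 and 3, 5, 2 and 2 members had an unadjusted edgeR p under 0.05 (16.2%, 12.5% and 15.7% of all contigs). The ratio of the highest to the lowest G. racemosa plant stayed at 6 or more in 18 of 20 members with TMM or RLE totals and in 20 of 20 after thinning.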

Other observations

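Other contigs with nearly the same profile were found for most members. Over 28198 contigs with at least 10 counts in each library, the likeness of a pair was measured as the SD over the 6 libraries of the log2 ratio of their CPM, where 0 means proportional levels. The closest contig to contig_19793 was contig_22971, with an SD of 0.089, and 22 contigs lay under 0.3. For contig_11537 the closest of all was contig_11538, the next in number, with an SD of 0.15 and levels of 8.32, 8.22 and 5.23 CPM in the pruinosa plants and 3.17, 1.37 and 9.97 CPM in the racemosa plants. An abundant neighbour in profile was contig_6047, closest to contig_9135 at an SD of 0.22, with 61.8, 79.4 and 20.7 CPM against 8.75, 52.7 and 70.8 CPM. No contig lay under 0.3 for contig_2491, contig_5144, contig_2914, contig_1550 and contig_9504, whose closest contigs had SDs of 0.59, 0.54, 0.97, 0.77 and 0.32. The profiles of contig_2914 and contig_1550 were thus the most isolated of the members by this measure. How many close profiles chance would give was not tested, so these are descriptions, and whether close pairs are pieces or copies of 1 gene was not tested.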
